A study of Mus musculus with 80 samples.

Results

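The genes described here are 8 components of transforming growth factor-beta (TGF-beta) signalling, chosen by name for their roles in the pathway: the ligands Tgfb1 and Tgfb2, the latent-ligand carrier Lrrc33, the receptors Tgfbr1 and Tgfbr2, the signal transducer Smad3 and the inhibitors Smad7 and Skil. All 8 were listed among the 15919 genes of the sort comparison and the 16000 genes of the cell preparation comparison. RNA-Seq had been run on 80 libraries from the brains of adult Cx3cr1(Jung)-cre/Ert2+;NuTRAP+ mice, every one of which had received tamoxifen (100 mg per kg, at about 3 months of age). In these mice the Cx3cr1 promoter drives a tamoxifen-dependent cre, and cells in which cre has acted carry eGFP-tagged ribosomes. Cx3cr1 is also used by macrophages at the brain borders, so the tag need not be limited to microglia. There was no group without the transgenes or without tamoxifen. Translating ribosome affinity purification (TRAP) pulls down the tagged ribosomes with their RNA, and Input is the RNA of the same homogenate before the pulldown.

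The sort comparison held 48 libraries, an Input and a TRAP library for each of 24 preparations: whole tissue (Tissue, n = 4), the dissociated and unsorted cell suspension (Cell, n = 4), and cells sorted with autoMACS magnetic columns (n = 4), the MACSQuant Tyto chip sorter (n = 5), the FACSAria sorter (n = 4) or autoMACS followed by Tyto (n = 3). The cell preparation comparison held 32 libraries from 16 preparations, with n = 4 each of Tissue, Dounce (cold mechanical dissociation), and Cell made by warm enzymatic and mechanical dissociation without or with inhibitors of transcription and translation. Several groups shared mice: Tissue and Cell, autoMACS and autoMACS to Tyto, Tyto and FACSAria, and Cell without and with inhibitors. The Tissue samples of both comparisons came from the same 4 mice, so Tissue values of one comparison are not an independent repeat of the other. Levels are given as CPM (counts scaled to a fixed library total), normalized within a fraction and a comparison. A gene was called changed when its fold change exceeded 2 (a log2 fold change beyond 1) at an adjusted p under 0.1 in edgeR's quasi-likelihood test over all genes. SE is the standard error of the log2 fold change.

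TGF-beta ligands are secreted in a latent complex, and in microglia and other myeloid cells the protein encoded by Lrrc33 (also named Nrros) holds latent TGF-beta1 at the cell surface until integrins release it. The freed ligand binds the type II receptor (Tgfbr2), which recruits and phosphorylates the type I receptor (Tgfbr1). Tgfbr1 phosphorylates Smad2 and Smad3, which enter the nucleus with Smad4. Smad7, an inhibitory Smad, blocks the receptor, and Skil (SnoN) represses Smad-dependent transcription. Both are themselves induced by the pathway and act as negative feedback. TGF-beta signalling is known to maintain the homeostatic gene programme of microglia.

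In the deposited tables, which use mouse build mm10, the genes were placed as follows, with Smad7 left out: Tgfb1 at chr7:25687002-25704996 (+), Tgfb2 at chr1:186623186-186705992 (-), Lrrc33 at chr16:32142825-32165476 (-), Tgfbr1 at chr4:47353305-47414924 (+), Tgfbr2 at chr9:116087695-116175363 (-), Smad3 at chr9:63646767-63757994 (-) and Skil at chr3:31095058-31122923 (+). RefSeq promoter sequence (build GRCm38.p6, 250 bases before to 50 bases after a RefSeq start site) was found for 6 of the 7 genes looked up, in 7 windows because Tgfbr1 had 2. RefSeq start sites can differ from the gene bounds given above. The Lrrc33 window and the first Tgfbr1 window lie wholly upstream of those bounds, and the second Tgfbr1 window lies within the gene. The windows of the ligands, of Lrrc33 and of Tgfbr2 are shown because the ligands moved in opposite directions after sorting, and Lrrc33 and Tgfbr2 stand for the carrier and the receptors. Capitals mark CAGAC, the short Smad binding element, searched on both strands.
Tgfb1: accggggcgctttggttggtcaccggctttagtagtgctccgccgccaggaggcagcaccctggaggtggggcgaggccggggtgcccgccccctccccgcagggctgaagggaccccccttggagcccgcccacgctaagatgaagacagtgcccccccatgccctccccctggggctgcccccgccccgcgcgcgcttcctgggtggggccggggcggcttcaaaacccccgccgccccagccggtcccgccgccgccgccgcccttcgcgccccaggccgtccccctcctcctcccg
Tgfb2: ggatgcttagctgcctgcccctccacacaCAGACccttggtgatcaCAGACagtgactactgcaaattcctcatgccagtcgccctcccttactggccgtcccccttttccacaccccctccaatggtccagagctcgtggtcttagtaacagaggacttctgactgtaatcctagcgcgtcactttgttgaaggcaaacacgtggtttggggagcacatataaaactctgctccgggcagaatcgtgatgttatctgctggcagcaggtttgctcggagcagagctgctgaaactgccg
Lrrc33: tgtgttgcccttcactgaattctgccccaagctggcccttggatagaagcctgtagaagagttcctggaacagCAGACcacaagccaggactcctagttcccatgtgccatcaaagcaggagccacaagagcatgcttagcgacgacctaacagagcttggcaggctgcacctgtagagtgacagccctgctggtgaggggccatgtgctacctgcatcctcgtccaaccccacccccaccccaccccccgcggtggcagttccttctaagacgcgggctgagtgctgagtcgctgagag
Tgfbr2: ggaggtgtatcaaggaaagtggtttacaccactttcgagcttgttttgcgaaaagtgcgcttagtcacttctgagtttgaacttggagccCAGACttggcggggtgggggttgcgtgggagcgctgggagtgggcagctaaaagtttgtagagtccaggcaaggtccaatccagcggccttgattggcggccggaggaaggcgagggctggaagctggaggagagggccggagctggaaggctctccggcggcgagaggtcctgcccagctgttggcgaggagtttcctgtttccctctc

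These windows lie at chr7:25686752-25687051 (+ strand) for Tgfb1, chr1:186705940-186706239 (- strand) for Tgfb2, chr16:32165545-32165844 (- strand) for Lrrc33 and chr9:116175314-116175613 (- strand) for Tgfbr2. Tgfb2 held 2 CAGAC matches, 221 and 204 bases upstream of the start site, Lrrc33 held 1 (177 bases upstream) and Tgfbr2 held 1 (160 bases upstream), and the second Tgfbr1 window held 1 (203 bases upstream), whereas Tgfb1, Smad3 and the first Tgfbr1 window held 0. CAGAC occurred in 49.6% of the 32851 mouse promoter windows of the same length, so these matches are common by letter content alone. The Smad palindrome GTCTAGAC (0.213% of windows) and the AP-1 site TGACTCA (5.20% of windows) were not found in any of the 7 windows.

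Libraries held 7129464 to 20168116 counts in the sort comparison and 2471448 to 14650287 in the cell preparation comparison. The microglial label was checked against 8 microglia markers, whose summed level had a median of 267 CPM in Tissue-Input, 6212 in Cell-Input and 34944 to 39643 in the 4 sorted Inputs. In TRAP the medians were 5733 in Tissue, 33026 in Cell and 40177 to 43533 in the sorted preparations. Cell-Input also held other cells: 8 astrocyte markers summed to 9490 CPM (3461 in Tissue-Input, 206 to 317 in sorted Inputs) and 8 endothelial markers to 1577 CPM (67.2 in Tissue-Input, 76.5 to 141 in sorted Inputs). The 8 oligodendrocyte markers had the highest sum of these lists in Cell-Input, 13477 CPM (3770 in Tissue-Input, 213 to 411 in sorted Inputs), and 8 neuron markers went the other way, from 6399 CPM in Tissue-Input to 820 CPM in Cell-Input. Markers of blood cells and border macrophages (8 listed) summed to 2420 CPM in Cell-Input, 124 in Tissue-Input and 473 to 753 in sorted Inputs. This list was drawn from Hba-a1, Hbb-bt, S100a8, S100a9, Ccr2, Ly6c2, Mrc1, Cd163 and Lyve1. It spans hemoglobin, neutrophil and monocyte genes, so its sum is not a level of macrophages alone. The part of these cells in the levels of the 8 genes was not tested. The library autoMACS-Input replicate 3 stood apart, with a microglia marker sum of 20968 CPM. The comparisons of the sorts with Cell-Input and of autoMACS to Tyto-Input with autoMACS-Input are also given without it.

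The first question was how the 8 genes stand in whole brain and in a dissociated cell suspension. From Tissue-Input to Cell-Input 7 of the 8 genes rose, against 28.5% of all genes tested that were called higher, and the median log2 fold change was 2.73 for the 8 genes and 0.17 for all genes. The ligand gene Tgfb1 was at 4.81, 5.96, 3.63 and 3.56 CPM in the 4 Tissue-Input libraries and at 77.5, 105, 121 and 97.8 CPM in Cell-Input. The groups did not overlap, and the log2 fold change was 4.49 (SE 0.22, adjusted p = 1.89e-14). Lrrc33 went from 4.13 to 6.88 CPM in Tissue-Input to 49.4 to 73.2 CPM in Cell-Input, a log2 fold change of 3.58 (SE 0.19). The receptor genes moved like Tgfb1: Tgfbr1 was at 15.2, 29.5, 18.2 and 18.7 CPM in Tissue-Input and at 378, 543, 512 and 418 CPM in Cell-Input. Its log2 fold change was 4.50 (SE 0.20), and that of Tgfbr2 was 4.36 (SE 0.24, from 9.31 to 11.9 CPM to 192 to 262 CPM). In bulk RNA, fewer cells of a type and less RNA per cell cannot be told apart, and the microglia marker sum was higher in Cell-Input as well (medians of 267 and 6212 CPM, all 8 markers listed).

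The genes downstream of the receptors rose less in Input. Smad7 was at 31.3, 28.6, 34.7 and 31.0 CPM in Tissue-Input and at 98.2, 127, 104 and 87.9 CPM in Cell-Input, a log2 fold change of 1.73 (SE 0.15), again with no overlap. Skil went from 40.1 to 47.1 CPM to 87.0 to 96.9 CPM, a log2 fold change of 1.06 (SE 0.14) that lies close to the fold limit and was 0.93 with the mouse as a block, which ends the call. Smad3 was at 64.8, 54.9, 67.1 and 70.4 CPM in Tissue-Input and at 72.7, 74.1, 79.7 and 77.1 CPM in Cell-Input. Its log2 fold change of 0.24 (SE 0.09, adjusted p = 0.0185) was under the fold limit, although the ranges did not overlap. The part of the lower neuron marker sum of Cell-Input in these levels was not tested. In Tissue-Input Smad3 had the highest level per exon length of the 8 genes, 11.6 CPM per kilobase, and Tgfb1 the lowest, 0.890 CPM per kilobase.

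Tgfb2, the other ligand gene, rose in Cell-Input too but by less: it was at 8.09, 8.81, 10.7 and 10.3 CPM in Tissue-Input and at 35.7, 22.6, 42.7 and 38.9 CPM in Cell-Input. The log2 fold change was 1.88 (SE 0.47, adjusted p = 0.00114), and no library of Cell-Input fell within the Tissue-Input range. The astrocyte, oligodendrocyte and endothelial marker sums were higher in Cell-Input as well, with the values given above, and the 7 listed of 8 mural cell markers summed to 503 CPM against 132 CPM in Tissue-Input. The part of these cells in the Tgfb2 level was not tested.

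**Figure D1:**
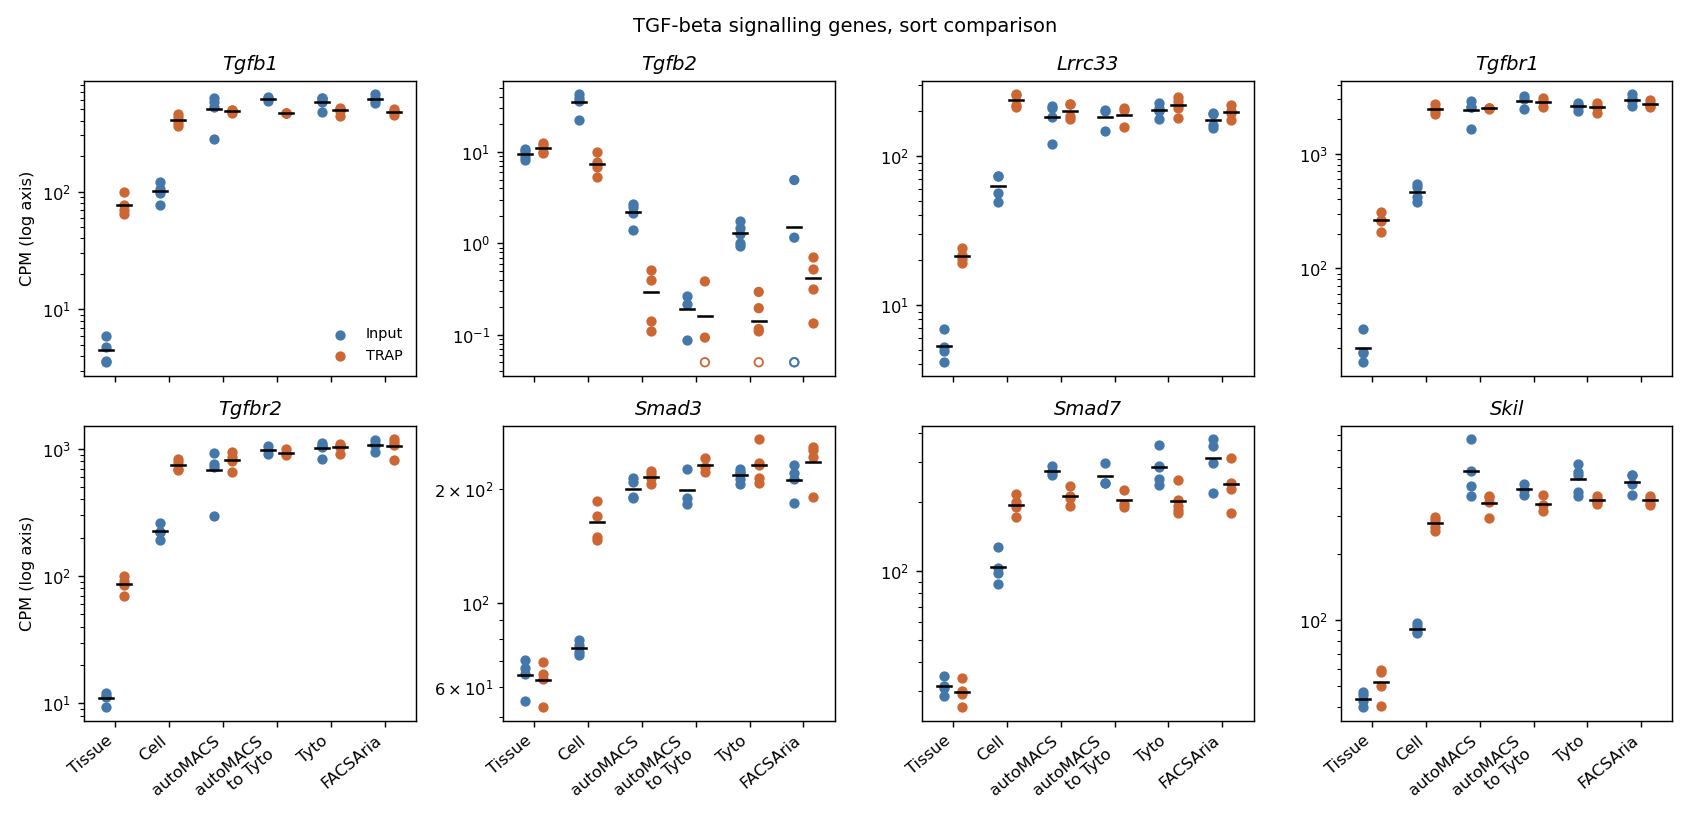
CPM (log axis) of each of the 8 genes in every library of the sort comparison, by preparation, with Input in blue, TRAP in orange and the group mean as a bar; open circles at the bottom of the Tgfb2 panel are libraries with 0 counts. Tgfb1, Lrrc33 and both receptor genes climb from Tissue-Input to Cell-Input to the sorted Inputs, while Tgfb2 is highest in Cell-Input and at 0 to 4.93 CPM after every sort.

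Sorting addressed what remains once microglia are isolated from the suspension. Against Cell-Input, the mean of the 4 sorted Inputs was higher for 7 of the 8 genes and lower for Tgfb2, where 51.8% of all genes were called in either direction. Tgfb1 reached 277 to 617 CPM after autoMACS, 472 to 624 after Tyto, 560 to 667 on the FACSAria and 587 to 639 after autoMACS to Tyto. All sorted libraries lay above every Cell-Input library, and the log2 fold change was 2.51 (SE 0.17, adjusted p = 2.71e-12). The changes of Tgfbr1 (2.54, SE 0.16) and Skil (2.25, SE 0.13) were close to that of Tgfb1. They were smaller for Tgfbr2 (2.04, SE 0.19), Lrrc33 (1.55, SE 0.15), Smad3 (1.45, SE 0.08) and Smad7 (1.43, SE 0.13). Smad3 moved from 72.7 to 79.7 CPM in Cell-Input to 183 to 231 CPM after sorting, although the step from Tissue to Cell had not passed the fold limit. Without the autoMACS-Input library that stood apart, all 8 genes were again called and Tgfb1 and Tgfbr2 were at 2.56 and 2.10.

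Tgfb2 moved the other way. Its levels after sorting were 1.4, 2.17, 2.53 and 2.69 CPM in autoMACS-Input, 0.940 to 1.75 CPM in Tyto-Input, 0, 0, 1.15 and 4.93 CPM in FACSAria-Input and 0.0881 to 0.265 CPM in autoMACS to Tyto-Input. Every sorted library lay below the lowest Cell-Input library (22.6 CPM) and below the lowest Tissue-Input library (8.09 CPM), and against Cell-Input the log2 fold change was -5.19 (SE 0.37, adjusted p = 7.08e-12). Some of these values rest on few reads: the 3 autoMACS to Tyto-Input libraries held 2, 1 and 2 counts, and 2 of the 4 FACSAria-Input libraries held 0, which allows up to 3 counts. The astrocyte, endothelial and mural marker sums were lower after sorting as well (mural markers had medians of 503 CPM in Cell-Input and 14.5 to 29.1 CPM in the sorted Inputs), and their part was not tested.

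The 4 sorts were then compared with each other. None of the 8 genes was called by the F test across the sorts, in Input (0 of 8, with 7.42% of all genes called) or in TRAP (0 of 8, with 4.17% called), using edgeR. In Input 2 genes, Tgfb2 and Tgfbr2, had an unadjusted p under 0.05, and in TRAP 1 gene, Tgfbr2, did. The Input call on Tgfb2 was made when autoMACS-Input replicate 1 or FACSAria-Input replicate 1, 2 or 4 was left out (1 gene called each time), and in TRAP when autoMACS to Tyto-TRAP replicate 1 was left out. Tyto and FACSAria, which were run on 3 shared mice, did not differ past the threshold in any of the 8 genes, in Input (0.476% of all genes called, 0 genes with an unadjusted p under 0.05) or in TRAP (0.0936% called, with Tgfb2 and Smad7 at an unadjusted p under 0.05), and DESeq2 and limma also called 0 in both.

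A Tyto sort after autoMACS changed Tgfb2 in Input, the 1 gene of the 8 that was called (1.96% of all genes called), and changed 0 of the 8 in TRAP (2.37% called, 0 with an unadjusted p under 0.05, and 0 by DESeq2 and limma). The libraries of autoMACS to Tyto-Input held 5 Tgfb2 counts in sum and those of autoMACS-Input 96. Relative to the summed library totals, the ratio was 0.0805. Its 95% exact counting interval of 0.0256 to 0.195 covers counting error only. The adjusted p was 0.0707, and it passed 0.1 (0.12 to 0.239) without autoMACS-Input replicate 3 or without any of the autoMACS to Tyto-Input libraries, and with only the compared groups in the fit (0.142). Summed markers of astrocytes had medians of 206 CPM (autoMACS) and 214 CPM (autoMACS to Tyto), while those of endothelial cells were at 115 and 76.5 CPM.

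**Figure D2:**
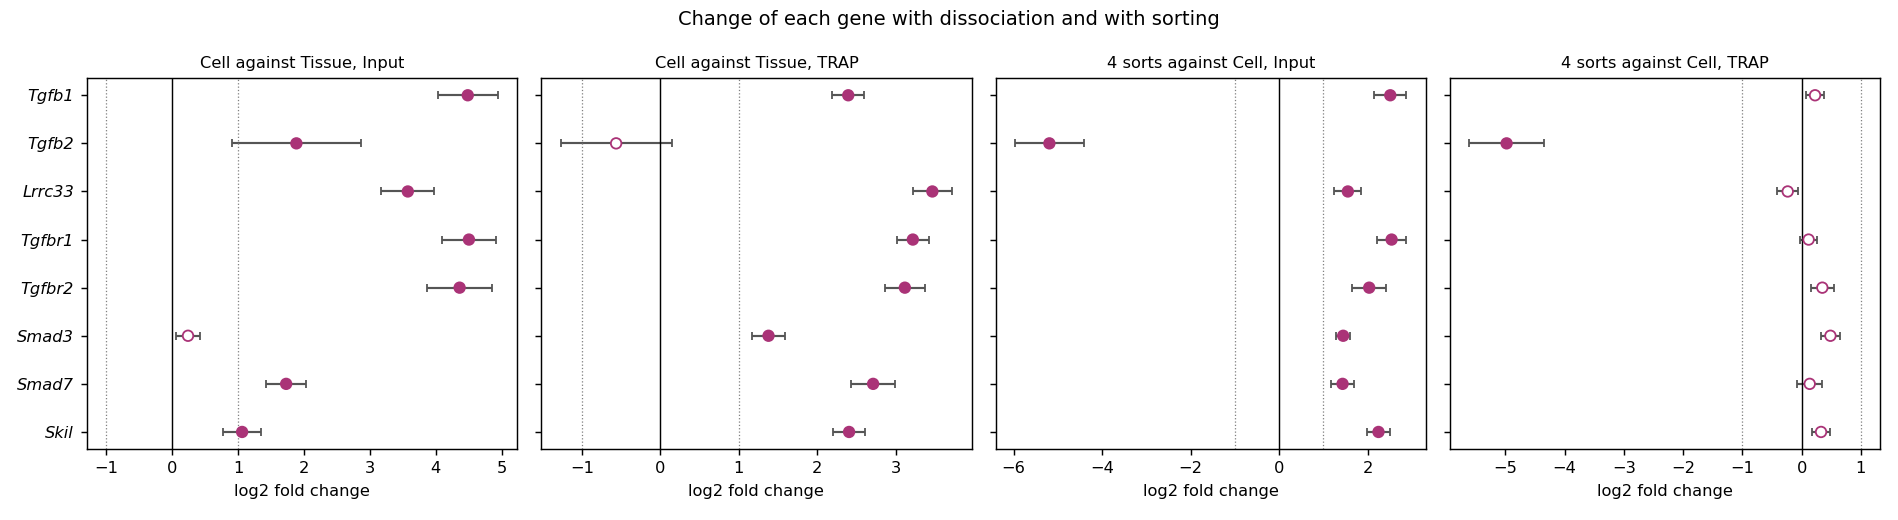
Log2 fold change of each gene from Tissue to Cell and from Cell to the mean of the 4 sorts, in Input and in TRAP; bars are 95% confidence intervals, filled circles are genes called changed and dotted lines mark a 2-fold change. In TRAP the step from Cell to the sorts leaves 7 genes between -0.24 and 0.49 and takes Tgfb2 to -4.98.

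In TRAP the same preparations differed in a different pattern. From Tissue-TRAP to Cell-TRAP 7 of the 8 genes rose, with 25.1% of all genes called higher and median log2 fold changes of 2.56 for the 8 genes and -0.01 for all genes. Lrrc33 was at 19.1, 21.8, 24.1 and 20.3 CPM in Tissue-TRAP and at 258, 213, 255 and 220 CPM in Cell-TRAP, the largest change of the 8 (3.47, SE 0.12, adjusted p = 2.52e-18). Tgfbr1 (3.22, SE 0.10) and Tgfbr2 (3.12, SE 0.13) followed. Among the downstream genes Smad7 was at 34.1, 25.4, 29.1 and 30.0 CPM in Tissue-TRAP and at 200, 217, 172 and 191 CPM in Cell-TRAP, a log2 fold change of 2.71 (SE 0.14). Skil rose by 2.41 (SE 0.10), Tgfb1 by 2.40 (SE 0.10) and Smad3 by 1.38 (SE 0.10, between 53 and 69.7 CPM in Tissue-TRAP and 146 to 186 CPM in Cell-TRAP). Tgfb2 did not pass the test, with 12.0, 9.71, 10.0 and 12.5 CPM in Tissue-TRAP, 7.70, 5.28, 6.83 and 10.1 CPM in Cell-TRAP and a log2 fold change of -0.56 (SE 0.34, adjusted p = 0.133). From Tissue-TRAP to Cell-TRAP the marker sums of microglia (medians of 5733 and 33026 CPM) and endothelial cells (166 and 861 CPM) rose as well. So did those of mural cells (91.9 and 131 CPM) and of blood cells and border macrophages (120 and 719 CPM). Those of neurons (5378 and 145 CPM), astrocytes (4330 and 1734 CPM) and oligodendrocytes (779 and 508 CPM) fell. The part of these cells in the TRAP changes was not tested.

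Sorting added little to the TRAP levels of 7 genes. Against Cell-TRAP only Tgfb2 was called in the mean of the 4 sorts (1 of 8, with 24.4% of all genes called), falling to 0 to 0.702 CPM in the 16 sorted TRAP libraries (log2 fold change -4.98, SE 0.30, adjusted p = 3.32e-13). 9 of those 16 libraries held at most 3 counts of Tgfb2. Astrocyte markers summed to a median of 1734 CPM in Cell-TRAP and 152 to 165 CPM in the sorted TRAP groups, and their part was not tested. The other 7 genes had log2 fold changes between -0.24 (Lrrc33) and 0.49 (Smad3, SE 0.08, adjusted p = 1.49e-05). Tgfb1, for example, was at 363 to 458 CPM in Cell-TRAP and at 439 to 515 CPM over the sorted TRAP libraries, a log2 fold change of 0.23 (SE 0.07).

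Set against Input of the same preparation, TRAP of whole tissue held more RNA of the ligand Tgfb1, the carrier and the receptors. In Tissue 4 of the 8 genes were higher in TRAP (9.23% of all genes called higher): Tgfb1 by a log2 fold change of 4.31 (SE 0.17), Tgfbr1 by 3.88 (SE 0.15), Tgfbr2 by 3.18 (SE 0.18) and Lrrc33 by 2.21 (SE 0.16). The intracellular genes were not called: Skil was at 0.45 (SE 0.13, adjusted p = 0.00648), Smad3 at 0.16 (SE 0.09) and Smad7 at 0.12 (SE 0.14), and Tgfb2 at 0.43 (SE 0.43). Tissue-TRAP still held marker RNA of other cells: neurons at 5378 CPM (6399 in Tissue-Input), astrocytes at 4330 (3461) and oligodendrocytes at 779 (3770). Microglia markers were at 5733 CPM (267 in Tissue-Input). The part of these cells in the TRAP against Input changes was not tested. Per exon length, the order in Tissue-TRAP began with Tgfbr1 (39.96 CPM per kilobase) and Tgfb1 (15.4), where Tissue-Input had Smad3 and Smad7 (11.6 and 6.94) at the top.

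In the Cell suspension all 8 genes differed between TRAP and Input (47.6% of all genes called in either direction), 7 of them higher in TRAP. Smad3 (1.39, SE 0.09) and Smad7 (1.19, SE 0.14), which had not been called in Tissue, were among these, together with Skil (1.88, SE 0.13). When DESeq2's size factors replaced TMM, Smad3 and Smad7 were at 0.98 and 0.78 and were no longer called. Tgfb2 was lower in TRAP, by a log2 fold change of -1.94 (SE 0.44, adjusted p = 0.000152). After sorting, Tgfb2 was the only one of the 8 called in the mean of the 4 sorts (-1.93, SE 0.52, with 18.9% of all genes called), and the other 7 lay between -0.31 (Smad7, SE 0.07) and 0.22 (Smad3, SE 0.05). This Tgfb2 value rests on few reads: each sorted group held 7 to 24 counts in TRAP and 5 to 96 in Input. In FACSAria-Input 1 library held 50 of the 62 counts.

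**Figure D3:**
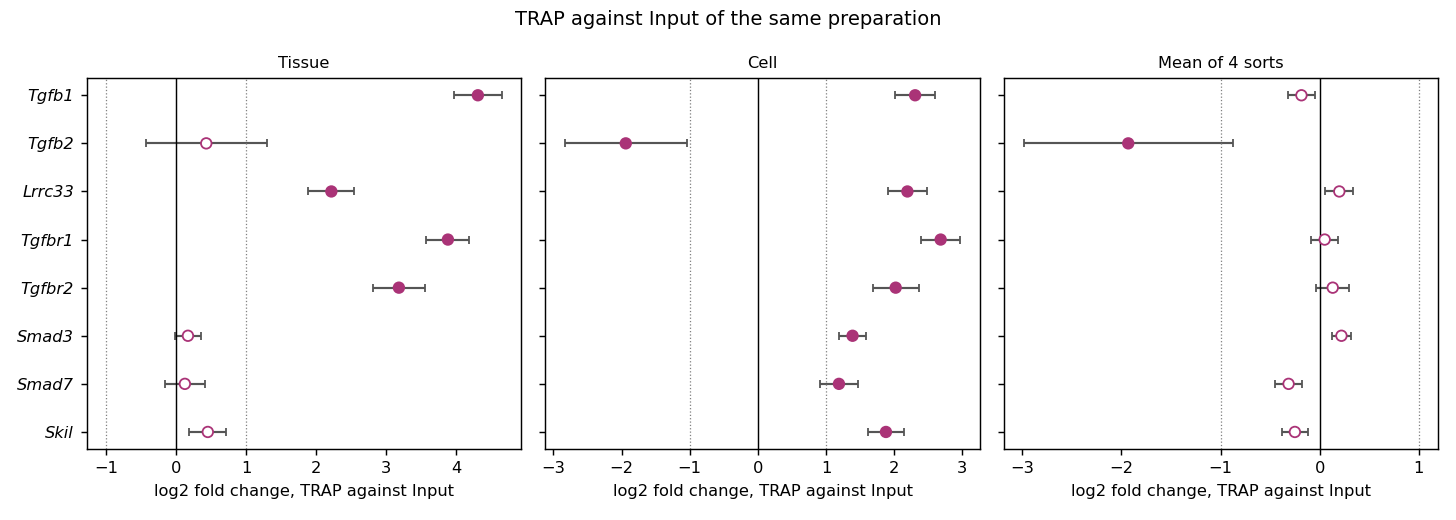
Log2 fold change of TRAP against Input of the same preparation for each gene in Tissue, in Cell and in the mean of the 4 sorts; bars are 95% confidence intervals, filled circles are called genes and dotted lines mark a 2-fold change. Tgfb1, Lrrc33 and the receptor genes lie right of 2 in Tissue and Cell and near 0 after sorting, and Tgfb2 lies near -1.9 in Cell and after sorting. The Tgfb2 value after sorting rests on few counts.

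The change from Tissue to Cell was tested for a difference between the fractions, and 7 of the 8 genes were called (35.3% of all genes called), in both directions. For Tgfb1 (interaction -2.0, SE 0.21), Tgfbr1 (-1.20, SE 0.19) and Tgfbr2 (-1.16, SE 0.24) the gain was smaller in TRAP than in Input. Tgfb2 (-2.36, SE 0.61) rose in Input but not in TRAP, where its change was negative and not called. For Skil (1.43, SE 0.18), Smad3 (1.22, SE 0.13) and Smad7 (1.07, SE 0.20) it was larger in TRAP, and Lrrc33 was at -0.02 (SE 0.20). The median interaction over all genes was -0.29. The microglia marker sum also differed less between Tissue and Cell in TRAP (5733 and 33026 CPM) than in Input (267 and 6212 CPM), and its part in these values was not tested. With DESeq2's size factors the values of Smad3 and Smad7 were 0.90 and 0.74, under the fold limit.

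In the cell preparation comparison the step from Tissue to Cell without inhibitors was made on other mice for Cell. In Input 6 of the 8 genes rose (25.6% of all genes called higher), from Smad7 (1.47, SE 0.11) to Tgfb1 (4.57, SE 0.22), while Skil was at 0.91 (SE 0.12) and Smad3 at 0.16 (SE 0.14). In TRAP 7 of the 8 rose (22.3% of all genes called higher), from Smad3 (1.52, SE 0.13) to Tgfbr2 (3.00, SE 0.17), and Tgfb2 was again not called (-0.17, SE 0.31, adjusted p = 0.642). The microglia marker sum rose in TRAP as well (medians of 6885 and 37764 CPM), and its part was not tested. Of the interactions with fraction, 5 of the 8 were called (38.6% of all genes called): Tgfb1 (-2.23), Tgfb2 (-2.29), Tgfbr1 (-1.65), Tgfbr2 (-1.31) and Smad3 (1.17), with Skil at 0.94 and Smad7 at 0.78.

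Dounce dissociation, which uses neither enzymes nor warmth, gave smaller changes in Input. Its mice were used for no other preparation, and the paper reports lower RNA integrity for Dounce-Input than for Tissue-Input and Cell-Input. Mouse, RNA quality and preparation therefore cannot be told apart in the Dounce comparisons. Against Tissue-Input 4 of the 8 genes were higher (28.7% of all genes called higher): Tgfbr1 (2.68, SE 0.20), Tgfb1 (2.36, SE 0.22), Tgfbr2 (2.22, SE 0.21) and Lrrc33 (1.79, SE 0.29). Smad7 (0.55, SE 0.11), Skil (0.68, SE 0.12) and Tgfb2 (-0.19, SE 0.17) were not called. The microglia marker sum of Dounce-Input (median 2562 CPM) lay between those of Tissue-Input (324) and Cell-Input without inhibitors (7787). The 8 listed markers of blood cells and border macrophages, which include hemoglobin and neutrophil genes, summed to 8893 CPM in Dounce-Input and 158 CPM in Tissue-Input. They were also high in Cell-Input, at 5440 CPM without and 5023 CPM with inhibitors. In Dounce-TRAP all 8 genes differed from Tissue-TRAP (50.3% of all genes called in either direction), 7 higher and Tgfb2 lower. The microglia marker sum was higher in Dounce-TRAP too (medians of 36116 and 6885 CPM), and its part was not tested. The gains ran from Smad3 (1.10, SE 0.13) to Tgfbr2 (3.07, SE 0.17), and Tgfb2 was at 2.93, 0.803, 1.44 and 3.28 CPM (11, 4, 4 and 11 counts) against 8.53 to 15.7 CPM in Tissue-TRAP (log2 fold change -2.44, SE 0.39). Between TRAP and Input of Dounce all 8 differed (47.5% of all genes called in either direction), with Tgfb2 lower (-2.04, SE 0.33) and Smad7 (1.02, SE 0.12) just past the fold limit, where it was 0.62 without Dounce-TRAP replicate 3.

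**Figure D4:**
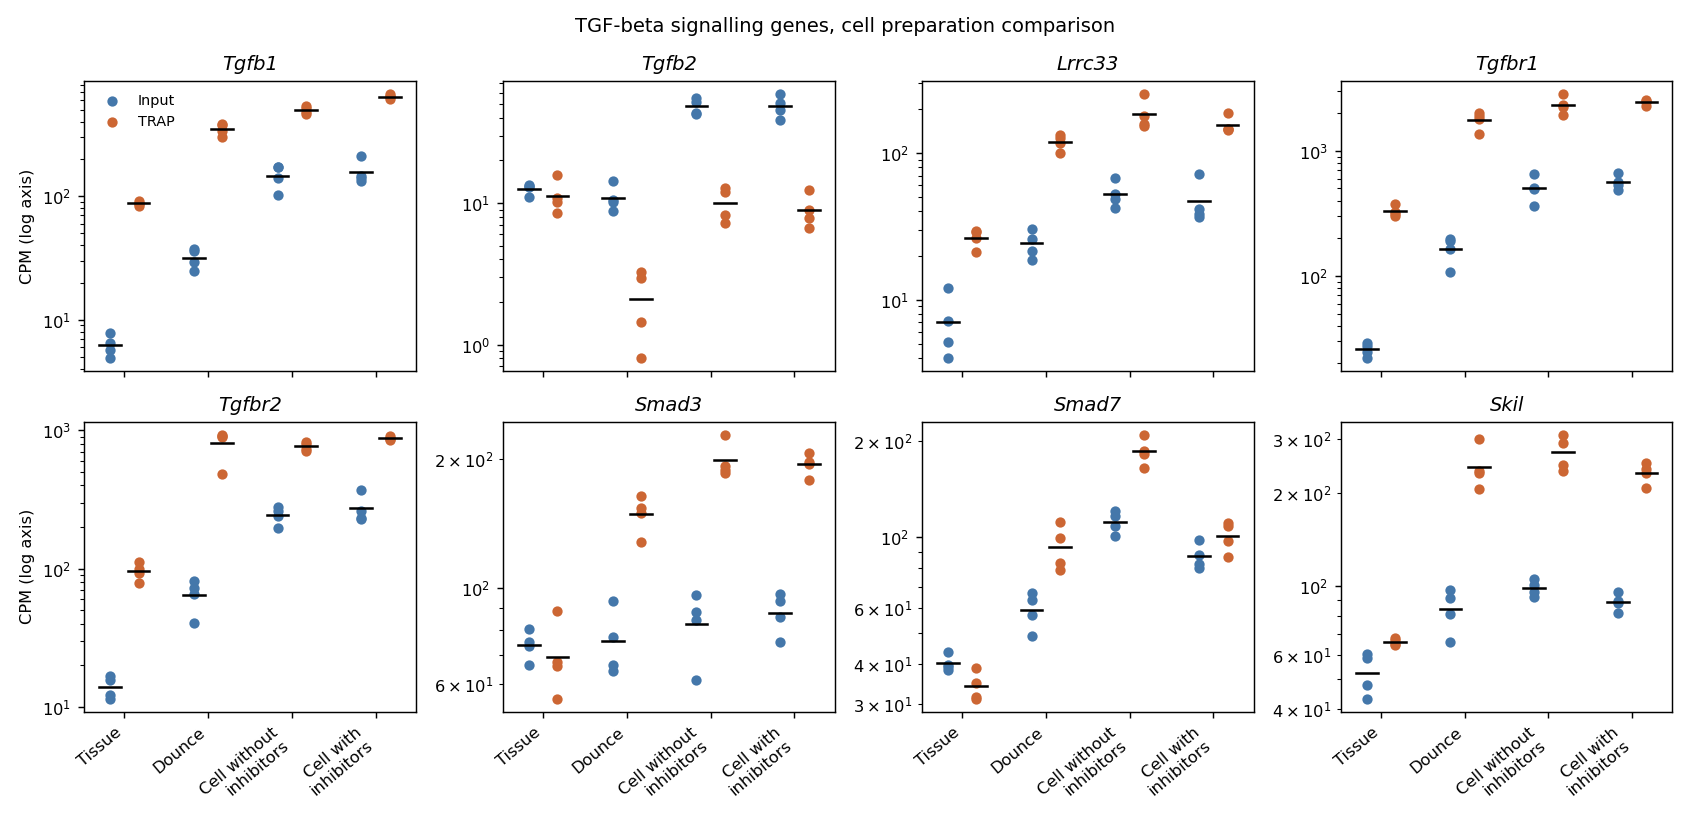
CPM (log axis) of each of the 8 genes in every library of the cell preparation comparison, with Input in blue, TRAP in orange and the group mean as a bar. In TRAP, Smad7 is at 166 to 210 CPM in Cell without inhibitors and at 78.7 to 111 CPM in Cell with inhibitors and in Dounce.

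The inhibitors were added to ask what the dissociation itself does to transcripts. None of the 8 genes passed both criteria between Cell with and without inhibitors, in Input (0.311% of all genes called) or in TRAP (0.638% called), by edgeR, DESeq2 or limma. At an unadjusted p under 0.05 there was 1 gene in Input, Smad7, and there were 2 in TRAP, Smad7 and Tgfb1. Smad7 in TRAP was at 182, 187, 210 and 166 CPM in the 4 mice without inhibitors and at 111, 97.3, 108 and 86.8 CPM in the same mice with them. The groups did not overlap, and the log2 ratio was between -0.95 and -0.71 in each of the 4 mice. The fitted log2 fold change was -0.88 (SE 0.12, 95% confidence interval -1.14 to -0.63), with an adjusted p of 0.000248 by edgeR and a size under the fold limit. In Input the same gene was at 117, 121, 101 and 109 CPM without and at 98.3, 80.3, 82.2 and 87.8 CPM with inhibitors, lower in 4 of 4 mice and again without overlap. The log2 fold change was -0.36 (SE 0.10, adjusted p = 0.446), and the adjusted p was 0.00402 with the mouse as a block. The difference between the fractions was not called for Smad7 (interaction -0.53, SE 0.16, adjusted p = 0.333) or for any of the others (0 of 8, with 0.145% of all genes called, 1 gene with an unadjusted p under 0.05, and 0 by DESeq2 and limma).

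The other feedback inhibitor, Skil, was at 237 to 309 CPM in TRAP without and 209 to 250 CPM with inhibitors (log2 fold change -0.22, 95% confidence interval -0.46 to 0.01, adjusted p = 0.621), with log2 ratios of -0.37 to -0.08 within the 4 mice, lower in 4 of 4. Lrrc33 in TRAP was also lower in 4 of 4 mice (log2 ratios of -0.42 to -0.09), at an adjusted p of 0.752 by edgeR, and for both genes the groups overlapped. Tgfb1 was higher with inhibitors in TRAP in 4 of 4 mice, at 467 to 541 CPM without and 616 to 671 CPM with, by a log2 fold change of 0.36 (SE 0.09, adjusted p = 0.0415) that is under the fold limit. The 95% confidence intervals of the receptor genes ran from -0.18 to 0.32 for Tgfbr1 and from -0.13 to 0.52 for Tgfbr2, and that of Smad3 from -0.29 to 0.23. Within mice, Tgfbr2 was higher with inhibitors in 4 of 4 (log2 ratios of 0.09 to 0.30) and the groups did not overlap, at an adjusted p of 0.862 by edgeR. The adjusted p given here for Skil, Lrrc33, Tgfb1 and Tgfbr2 came from the fit without the mouse as a block. They do not use the pairing of the mice. The shares of all genes that moved 1 way in 4 of 4 mice, or whose groups did not overlap, were not computed. The counts of mice and the overlaps given here and for Smad7 therefore have no background to be read against. The summed level of 10 immediate-early genes had medians of 22628 CPM in Cell without inhibitors-TRAP, 529 with inhibitors, 416 in Dounce-TRAP and 409 in Tissue-TRAP. The microglia marker sums of the TRAP groups were 37764 CPM without inhibitors, 39640 with inhibitors and 36116 in Dounce.

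Dounce-TRAP and Cell without inhibitors-TRAP differed in 2 of the 8 genes, both lower in Dounce (8.02% of all genes called lower). The groups came from different mice, and Dounce-TRAP libraries were smaller (2471448 to 4724538 counts, against 12876223 to 14650287). Smad7 was at 99.2, 78.7, 111 and 83.4 CPM in Dounce-TRAP, below every library without inhibitors and overlapping those with inhibitors (86.8 to 111 CPM). Its log2 fold change of -1.0 (SE 0.12, adjusted p = 2.57e-06) lay at the fold limit and ranged from -1.10 to -0.93 as single libraries were left out. Tgfb2 was lower by a log2 fold change of -2.27 (SE 0.39, adjusted p = 9.01e-05), and endothelial markers summed to 65.1 CPM in Dounce-TRAP and 788 CPM in Cell without inhibitors-TRAP, while astrocyte (2440 and 1591 CPM), oligodendrocyte (1688 and 738 CPM) and neuron markers (1171 and 92.8 CPM) were higher in Dounce-TRAP. The part of these cells was not tested. The other 6 genes lay between -0.63 and 0.07. Of these, Tgfb1, Smad3 and Lrrc33 were also lower in Dounce-TRAP without overlap, while the ranges of Tgfbr1, Tgfbr2 and Skil overlapped. In edgeR 6 of the 8 genes had an unadjusted p under 0.05: Tgfb1, Tgfb2, Tgfbr1, Smad3, Smad7 and Lrrc33. The share of all genes whose groups did not overlap was not computed here either. Against Tissue-TRAP, Smad7 was at log2 fold changes of 2.44 (SE 0.13) in Cell without inhibitors, 1.56 (SE 0.13) in Cell with inhibitors and 1.44 (SE 0.13) in Dounce, comparisons that share the Tissue-TRAP libraries.

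**Figure D5:**
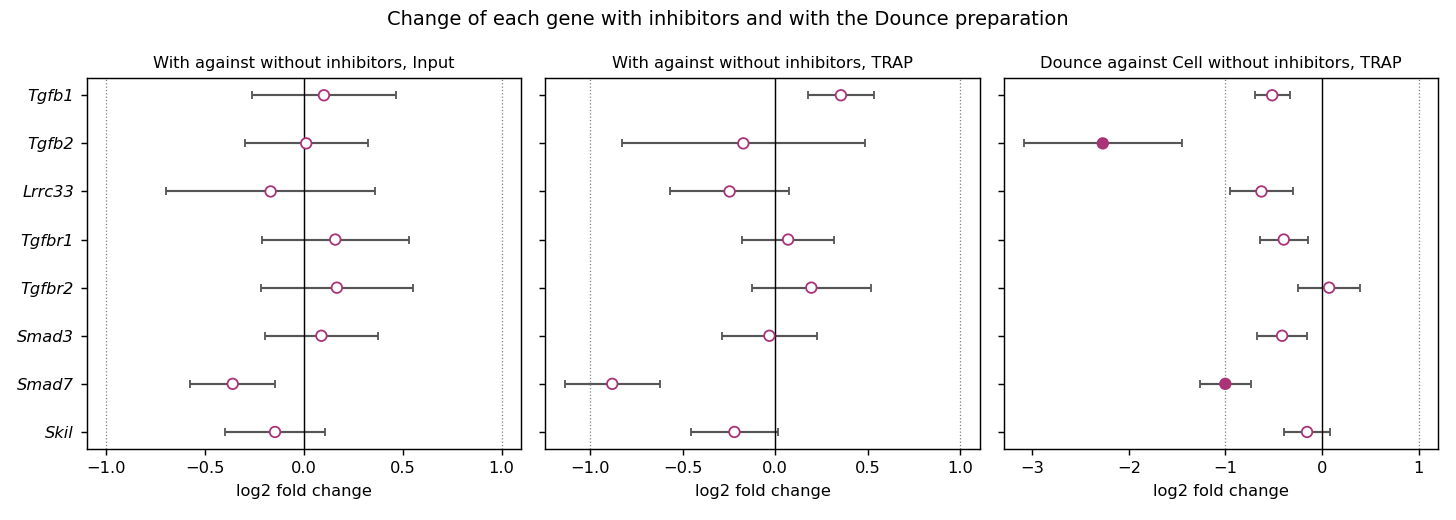
Log2 fold change of each gene with against without inhibitors, in Input and in TRAP, and of Dounce-TRAP against Cell without inhibitors-TRAP; bars are 95% confidence intervals, filled circles are called genes and dotted lines mark a 2-fold change. Smad7 is at -0.36 and -0.88 with inhibitors and at -1.0 in Dounce.

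The other genes of the pathway were followed in lists by role, beside 28.5% of all genes called higher from Tissue-Input to Cell-Input (the first step) and 51.8% called in either direction from Cell-Input to the sorts (the second step). Of 14 microglial genes known to depend on TGF-beta, 14 rose from Tissue-Input to Cell-Input (median log2 fold change 4.15, with Gpr34 at 5.62, P2ry12 at 5.50 and P2ry13 at 5.08), 14 rose from Cell-Input to the sorts, and 0 were called between Cell-TRAP and the sorts (24.4% of all genes called). None of the 14 was called with against without inhibitors by edgeR, in Input (median 0.14, 0.311% of all genes called) or in TRAP (median 0.06, 0.638% called). With shares this low, 0 of 14 does not set the list apart. In Dounce-TRAP against Cell without inhibitors-TRAP 0 of the 14 were called as well (median -0.12), with 4228 of 14723 genes called in either direction. Of 16 genes for ligands and their latency, 11 rose from Tissue-Input to Cell-Input, led by Itgb8 (4.66), an integrin subunit that activates latent TGF-beta. From Cell-Input to the sorts 11 of these 16 fell and 2 rose, and Itgb8 was at -6.67 and Tgfb3, the remaining ligand gene, at -5.35. Of 8 further receptors and co-receptors, 5 rose from Tissue-Input to Cell-Input, led by the endothelial co-receptor gene Eng (4.73), and 5 fell and 1 rose from Cell-Input to the sorts, with the co-receptor gene Tgfbr3 at -4.92. Of 15 further Smads and Smad regulators, 6 rose and 2 fell at the first step, and 6 rose and 2 fell at the second, with the corepressor gene Tgif1 at 3.63 and 2.43, so that the shares of this list were near those of all genes. In the branch of BMPs and activins, 10 of 18 tested genes rose and 2 fell at the first step, and 2 rose and 11 fell at the second, among them Bmpr1b (2.09 and -8.46).

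Among 16 genes that TGF-beta is known to induce, 11 rose (28.5% of all genes called higher) and 1 fell from Tissue-Input to Cell-Input, with Fn1 (fibronectin) at 4.24 and Jun at 3.61. With against without inhibitors 4 of the 16 fell in Input (0.311% of all genes called in either direction) and 5 of the 15 tested fell in TRAP (0.638% called), with a median log2 fold change of -0.48 in TRAP and -0.03 over all genes. The TRAP changes were led by Jun (-5.19), Junb (-4.35) and Cyr61 (-3.25). Jun and Junb are also among the 10 immediate-early genes, all of which fell, so these 2 stand for both lists. Of the 15 Smads and Smad regulators only Tgif1 fell in TRAP (-1.09). Dounce-TRAP was lower than Cell without inhibitors-TRAP for 10 of the 15 induced genes tested (8.02% of all genes called lower), with Cdkn2b, a cyclin-dependent kinase inhibitor, at -7.47.

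The profile of each gene over the 12 group means of the sort comparison was set beside that of all other genes, as a description over groups that partly share mice. The closest for Tgfb1 were Tifab, P2ry6 and Ctsh (Pearson's r of 0.998, 0.997 and 0.997 on log2(CPM + 1) group means), and for Tgfbr2 they were Rasgrp3, Itpripl2 and P2ry12 (0.998 each). For Smad7 they were Spry1, Map3k8 and Nfkbid (0.998, 0.996 and 0.996), and for Tgfb2 they were Ntn4, Bmp7 and Nkd1 (0.994, 0.991 and 0.991). Among the 8 genes Tgfb1 and Tgfbr1 had an r of 0.996 and Smad7 and Skil one of 0.977, whereas Tgfb2 had a negative r with each of the other 7, from -0.88 (Smad3) to -0.64 (Lrrc33). In sorted microglia by FACSAria-TRAP the levels per exon length ran from Tgfbr1 (418 CPM per kilobase) over Tgfbr2 (129), Tgfb1 (93.8), Smad7 (53.2), Lrrc33 (47.1), Smad3 (42.6) and Skil (36.3) to Tgfb2 (0.0723). The ranges of neighbours from Smad7 to Skil overlapped, and those of Tgfbr1, Tgfbr2 and Tgfb1 did not.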

How the data were processed

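Expected counts per gene had been deposited by the authors, who aligned stranded poly(A) RNA-Seq reads to mm10, removed duplicate reads and quantified transcripts in Strand NGS. Each table lists only genes with more than 5 reads throughout some group of samples. The labels name DESeq2. Beside the counts, the authors had deposited normalized log2 values, relative to the median of Tissue-Input, which were used here only for an alternative with limma. No column of the authors' own comparisons was used. Counts were rounded to whole numbers, and genes were kept if some group had more than 5 counts in each of its libraries. Each fraction of each comparison was fitted on all its libraries with edgeR's quasi-likelihood test (version 4.0.16, R 4.3.3, TMM normalization, Benjamini-Hochberg adjustment over all genes, no covariate), and TRAP was set against Input in a fit of both fractions. Since CPM were normalized separately in Input and TRAP, folds between fractions come from that joint fit. Confidence intervals of fold changes use the fit's own degrees of freedom. The fits were tested on simulated data.

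The 8 genes, the gene lists and the tests were chosen with earlier results of these data known. The text names all 8 genes and, for each list and main comparison, at most the 3 called genes with the largest change. A gene that this rule would name is not reported here. Most-like genes were the 3 with the highest Pearson's r of log2(CPM + 1) group means. Motifs were searched in RefSeq promoter windows. Groups came from the sample labels, and mice from their titles. Libraries from the same mouse were checked for pairing: over 11 comparisons, the correlation of same-mouse deviations from the group means averaged -0.004 to 0.365. Because the mice are the same, the mouse was used as a block in an alternative. P-values measure the spread between these samples. Alternatives were DESeq2's size factors, DESeq2 (1.42.0), limma (3.58.1), other filters, only the compared groups, an earlier table without Dounce libraries, the mouse block and leaving out each library. Depth is a limit where a library held few counts, and 0 counts allow up to 3. Intervals and this limit cover counting error only.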

Additional observations from a re-analysis of the deposited data

Results flagged for a closer look

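Within groups of 4 or 5 libraries, 8 of 144 combinations of gene and group had 1 library farther from the rest than Dixon's 95% limit, and chance alone gives about 1 in 20. Of these, 3 were in libraries of the same mouse: replicate 4 of Cell with inhibitors had 212 CPM of Tgfb1 and 71.9 CPM of Lrrc33 in Input and 187 CPM of Lrrc33 in TRAP. The others were Tgfb2 at 10.97 CPM in Tissue-Input replicate 4 of the cell preparation comparison, Tgfbr1 at 2462 CPM in autoMACS-TRAP replicate 3, Tgfbr2 at 909 CPM in Tyto-TRAP replicate 4, Smad3 at 228 CPM in Cell without inhibitors-TRAP replicate 2 and Tgfbr2 at 483 CPM in Dounce-TRAP replicate 3.

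The change from Tissue to Cell differed between TRAP and Input by the interaction test in 7 of the 8 genes of the sort comparison: Tgfb1 (-2.0), Tgfb2 (-2.36), Tgfbr1 (-1.20), Tgfbr2 (-1.16), Smad3 (1.22), Smad7 (1.07) and Skil (1.43). In the cell preparation comparison it differed in 5 genes: Tgfb1 (-2.23), Tgfb2 (-2.29), Tgfbr1 (-1.65), Tgfbr2 (-1.31) and Smad3 (1.17). Both comparisons use Tissue libraries of the same 4 mice. The median of this interaction over all genes was -0.29 in the sort comparison and -0.61 in the cell preparation comparison.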

How the results depend on the processing

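The counts of called genes among the 8 stayed within 1.5 times under DESeq2's size factors, DESeq2, limma, no filter, the earlier table and the mouse block. A filter of at least 10 counts in every library removed Tgfb2 from these tests, and the counts became 0 for the 4 sorts against Cell-TRAP, 0 for autoMACS to Tyto-Input against autoMACS-Input, 0 for Dounce-TRAP against Cell without inhibitors-TRAP (Smad7 at -0.90), 0 for TRAP against Input in the 4 sorts, 5 for TRAP against Input in Cell, 5 in Dounce and 4 for the sort interaction. When the fit held only the compared groups, autoMACS to Tyto-Input against autoMACS-Input had 0 called genes and Dounce-TRAP against Cell without inhibitors-TRAP had 1 (Smad7 at -0.97). With 1 library left out, the counts ranged from 0 to 1 for the F test in Input, 0 to 1 for the F test in TRAP, 0 to 1 for autoMACS to Tyto-Input against autoMACS-Input and 1 to 2 for Dounce-TRAP against Cell without inhibitors-TRAP (1 without Cell without inhibitors-TRAP replicate 3 or Dounce-TRAP replicate 2 or 4, Smad7 at -0.94, -0.93 and -0.95). DESeq2 and limma were not run for the F tests.

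Signs turned only for changes that were not called. Tgfb2 in Tyto-Input against FACSAria-Input was 1.44 with limma and ranged from -0.71 to 1.58 with 1 library left out. Smad7 in TRAP against Input in Tissue was -0.0033 with the stricter filter and -0.0066 with limma. With 1 library left out, Tgfb2 in Cell without inhibitors-TRAP against Tissue-TRAP ranged from -0.30 to 0.038 and Lrrc33 in the sort interaction from -0.17 to 0.079. With against without inhibitors, the ranges were -0.075 to 0.188 for Tgfb1, -0.097 to 0.106 for Tgfb2, -0.010 to 0.240 for Tgfbr2 and -0.034 to 0.173 for Smad3 in Input, and -0.0098 to 0.178 for Tgfbr1 and -0.063 to 0.041 for Smad3 in TRAP. The cause of these turns was not tested.

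Genes near the fold limit crossed it. Skil in Cell-Input against Tissue-Input was 0.92 to 0.97 under DESeq2's size factors, DESeq2, limma, the stricter filter, only the compared groups and the mouse block, and the replicate block by mouse (Skil 0.93) changed no other call. Smad3 in Cell-TRAP against Tissue-TRAP was 0.94 with limma, and Tgfb2 there was -1.03 (adjusted p = 0.0951), past both limits. Smad7 in TRAP against Input in Dounce was 0.59 to 0.80 under 4 alternatives and 0.62, 0.93 and 0.99 without Dounce-TRAP replicate 3, Dounce-Input replicate 1 or Dounce-TRAP replicate 1. Under the same 4, Smad3 and Smad7 in TRAP against Input in Cell were 0.70 to 0.98 and in the sort interaction 0.71 to 0.90, where Smad7 was also just under 1 without Tissue-TRAP replicate 2 or Cell-Input replicate 4. In the interaction of the cell preparation comparison, Skil was called at 1.07 to 1.39 under 6 alternatives (DESeq2's size factors, the stricter filter, DESeq2, limma, only the compared groups, the earlier table). The last 2 of these gave 1.23 and 1.21 for Smad7, past the limit, and -0.86 and -0.92 for Tgfbr2, under it. DESeq2's size factors shifted the median of all genes by -0.41 in TRAP against Input in Cell, -0.33 in Cell-TRAP against Tissue-TRAP -0.32 in the sort interaction, -0.23 in TRAP against Input in Dounce, -0.21 in the 4 sorts against Cell-Input and 0.16 in the other interaction.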
